A study of Mus musculus with 4 samples.

Results

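The genes that start and carry out DNA replication were followed through 4 whole-transcript arrays of mouse blastocyst outgrowths, from origin recognition to the supply of deoxynucleotides. They come from a list of 53 gene symbols grouped by function; the rule uses no signal, but the list was drawn up with earlier results of these arrays known. A gene counted as measured where a row of the array carried its symbol and no other. This held for 51 of the 53, among 30142 genes tested; the rows of Mcm7 and Orc5 also carry symbols of other transcripts and were set aside.

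Blastocysts were flushed at 3.5 days post coitum after natural matings and superovulations between Tip110+/- mice. Each was grown in a well of its own for 4 to 6 days, untreated, in embryonic stem cell medium made with knockout serum replacement, where it attaches and spreads. Each genotype, wild-type and Tip110-/-, has a first replicate that pools 3 outgrowths and a second from a lone outgrowth, so n = 2 arrays per genotype. Genotypes were read from the RNA itself. Tip110 is the product of Sart3, a factor that helps the U4 and U6 small nuclear RNAs to pair again between rounds of splicing. The labels do not describe the mutant allele or the litters, so p-values measure only the spread between these arrays.

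Replication begins when the origin recognition complex, Cdc6 and Cdt1 load the ring-shaped MCM helicase onto DNA before S phase. A kinase made of Cdc7 and Dbf4, together with Ticrr and Topbp1, then lets Cdc45 and the GINS complex join the helicase, and the polymerases follow it. Many of these genes are transcribed under E2F factors as cells enter S phase. In an outgrowth the inner cell mass divides quickly, while trophoblast giant cells copy their DNA again and again without mitosis, so both use this machinery.

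Signals are log2 values as deposited, listed in the order wild-type pool, wild-type single outgrowth, Tip110-/- pool, Tip110-/- single outgrowth. Differences are Tip110-/- minus wild-type, with the standard error (SE) of limma's moderated fit. "Passed" means an unadjusted p under 0.05 in that fit. Over all genes the arrays had medians of 4.21, 4.22, 4.45 and 4.32. RNA per outgrowth was 55.0 and 144 pg in Tip110-/- and 248.7 and 178 pg in wild-type. Positive control rows had medians of 9.80, 9.66, 8.69 and 9.51, and hybridization controls were higher in Tip110-/- by 0.335 to 0.792, so amount of RNA and hybridization cannot be told apart from genotype. Sart3 was at 4.94, 5.98, 4.28 and 4.54 and passed as lower (-1.05 ± 0.39 SE, limma unadjusted p = 0.044, limma adjusted p = 0.386). In Tip110-/- it lay near the medians over all genes of those arrays. Whether its probes lie in the deleted part is not stated.

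In the Tip110-/- outgrowths 9 of 51 replication genes, or 17.6%, passed as lower, without adjustment, while the other 42 did not pass. Of all genes 3.67% passed as lower, and 7.11% of the genes above the median row of the table. Pole, the catalytic subunit of polymerase epsilon, and Rfc5, a subunit of the clamp loader, differed by -3.41 and -3.63, the helicase subunit Gins4 by -2.84 and the ligase Lig1 by -2.02. Those that did not pass include Ticrr (-2.52) and Cdc45 (-2.16), more negative than Lig1. They also include the origin recognition genes, Cdc6, Cdt1, Mcm4 and the ribonucleotide reductase subunit Rrm2. No member passed after adjustment over all genes (smallest limma adjusted p = 0.284, for Pole), and among all genes tested 0 did.

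Of the 51 members, 9 passed as lower, 0 as higher and 42 did not pass. The 9 were Pole, Rfc5, Tk1, Mcm10, Lig1, Gins4, Prim1, Pold1 and Rpa3, or 17.6% of members. Over all genes 3.67% passed as lower and 8.99% as higher. Every measured member lay above the median row of the table, and among the 15071 genes there the shares were 7.11% and 4.98%. The background depends on how the arrays are scaled. Over all genes 4.84% passed as lower and 4.19% as higher under quantile normalization, 6.05% and 3.02% with arrays centred on their median, and 5.11% and 3.89% under cyclic loess, where 7, 10 and 8 members passed as lower.

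The Tip110-/- arrays both lay under the wild-type pair for 26 members, or 51.0%, where 12.9% of all genes and 23.1% of genes above the median row did. Under quantile normalization, centring and cyclic loess the members so placed were 23, 29 and 25, and the shares of all genes 21.2%, 23.9% and 22%. In the deposited values the Tip110-/- arrays lay above wild-type for 3, Orc4, Cdc7 and Rfc3, or 5.88%, against 39.9% and 23.5%. The difference was below 0 for 44 members, or 86.3%, against 30.4% and 47.6%. It reached 2-fold toward lower signal in 18 members, or 35.3%, against 5.56% and 11%. Toward higher signal it reached 2-fold in 1 member, Orc4, against 4.53% and 8.85%.

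The median difference over the members was -0.74, where all genes had 0.15 and those above the median row 0.03. The median of the 1324 positive control rows differed by -0.629. It was at 9.80, 9.66, 8.69 and 9.51, so that mainly the Tip110-/- pool stood low. Its part in the members' median was not tested. The median member signal was 8.67 and 8.68 on the wild-type arrays, and on the Tip110-/- arrays 7.36 and 7.73. The count of 9 became 5 without the wild-type single outgrowth, and 4 of those 5 were among the 9. Without the Tip110-/- single outgrowth it was 7, of which 4 were among the 9. Pole, Rfc5 and Tk1 passed in all 13 other settings tried.

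**Figure D1:**
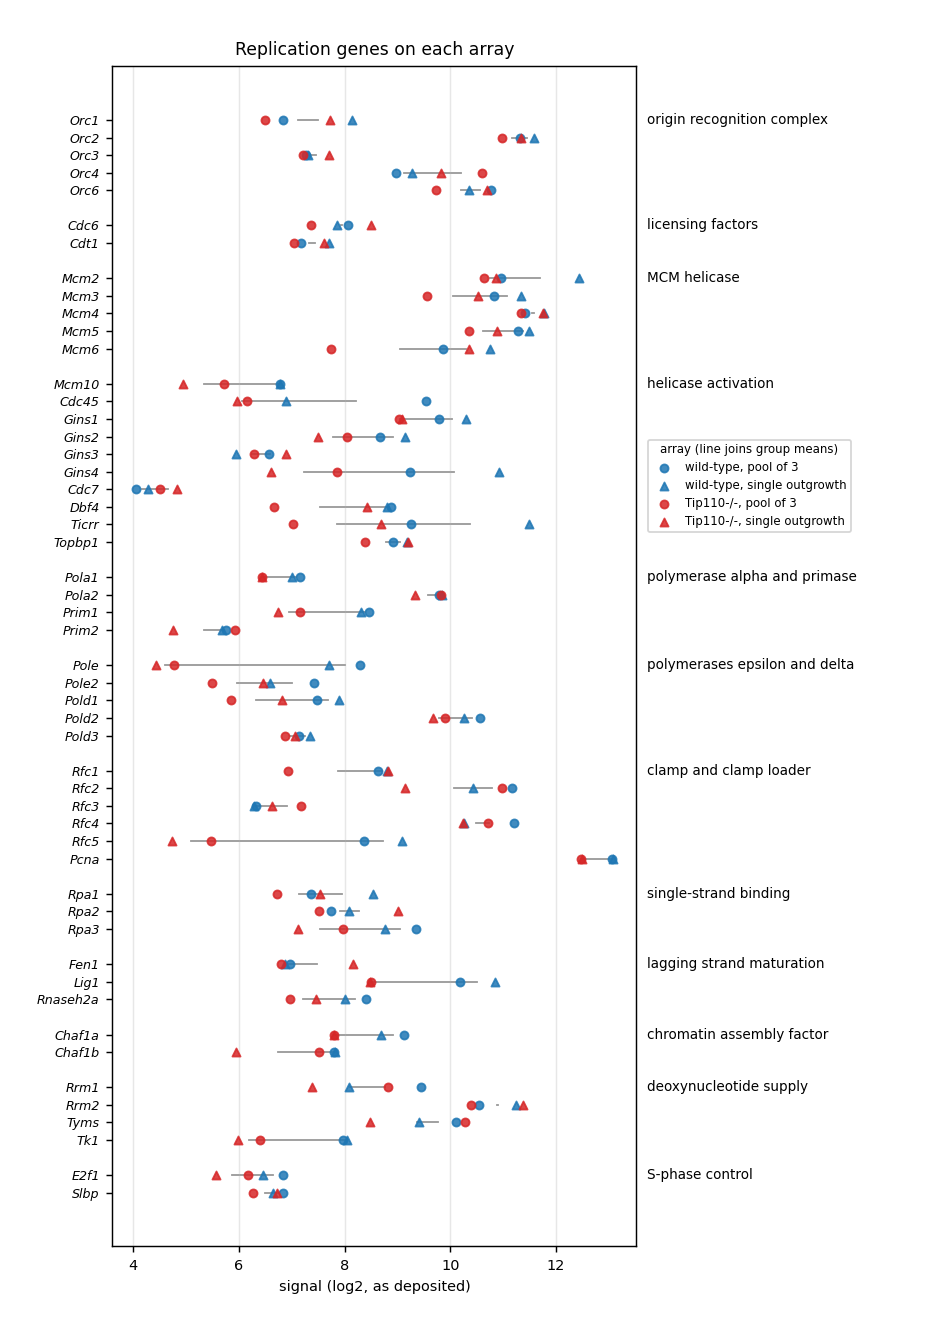
Signal of the 51 measured replication genes (log2, horizontal axis) on each of the 4 arrays, in the order of replication; circles are pools of 3 outgrowths, triangles single outgrowths, blue wild-type, red Tip110-/-, and a grey line joins the group means. The red points of Pole, Rfc5, Lig1, Gins4 and Tk1 lie apart from the blue ones, while those of Orc2, Mcm4 and Rrm2 overlap them.

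**Figure D2:**
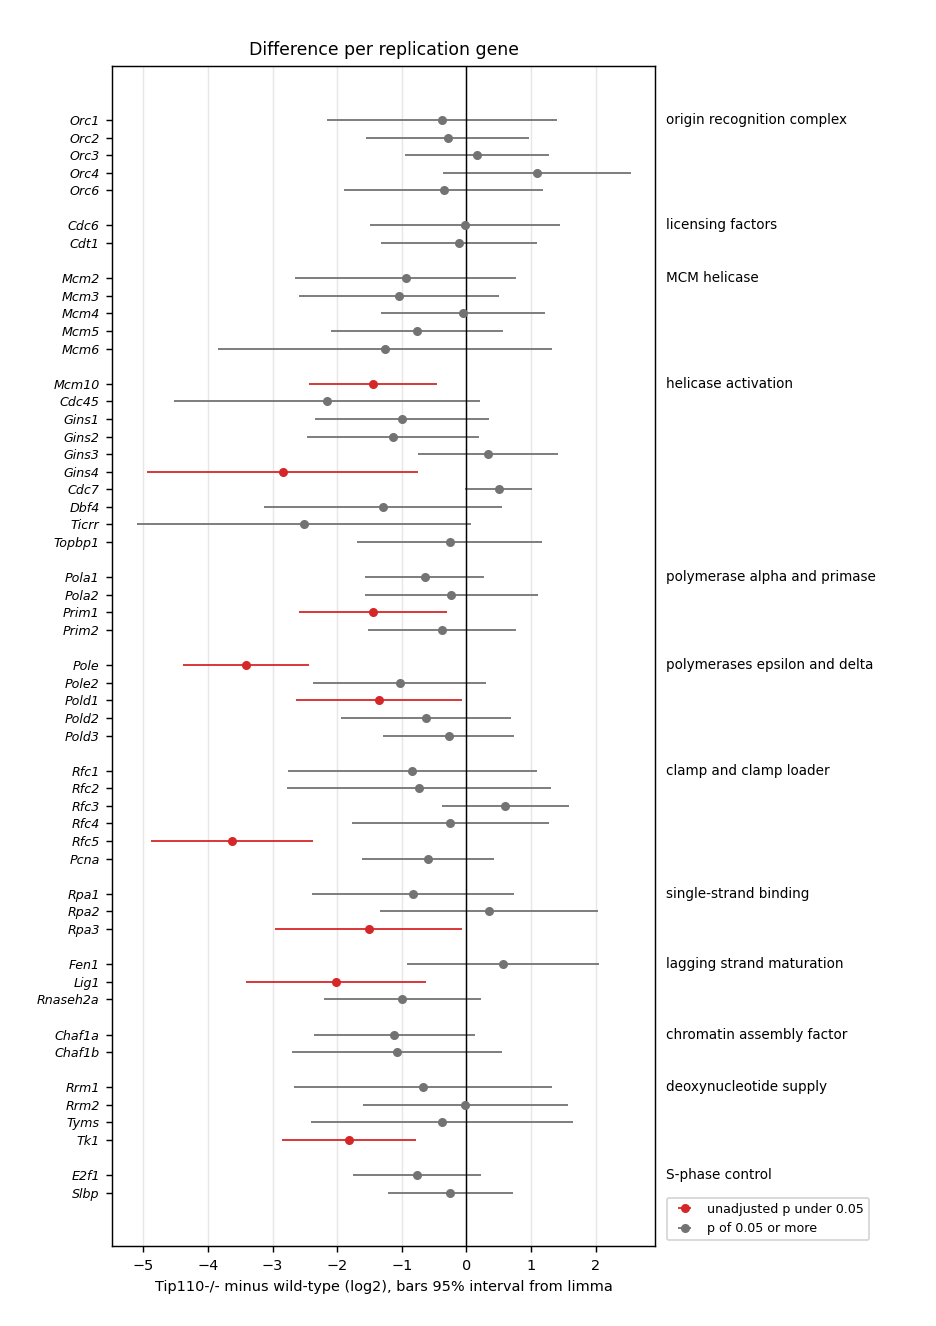
Difference between Tip110-/- and wild-type (log2) for each replication gene with its 95% interval from limma; red marks an unadjusted p under 0.05. The points run from -3.63 for Rfc5 to 1.09 for Orc4, and the 9 red intervals all lie below 0.

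The origin recognition complex marks the sites where replication can start. None of its 5 measured members passed, and their median difference was -0.29. Orc4 was at 8.98, 9.27, 10.60 and 9.82. Both Tip110-/- arrays were higher, and its difference of 1.09 ± 0.57 (SE) was the most positive of all members (limma adjusted p = 0.430). Orc1, whose level varies over the cell cycle, was at 6.83, 8.14, 6.49 and 7.73, with the single outgrowths higher than the pools in both genotypes (-0.38 ± 0.69 SE). Orc2 (-0.29), Orc3 (0.16) and Orc6 (-0.35) overlapped between genotypes as well, and Orc3 turned sign with arrays centred on their median (-0.002).

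Cdc6 and Cdt1 bring the helicase to the origin. Cdc6 was at 8.06, 7.85, 7.36 and 8.51, so that the Tip110-/- arrays lay on either side of the wild-type ones. Its difference was -0.02, with a 95% interval from -1.49 to 1.45, which leaves room for a change of over 2-fold either way. Cdt1 was at 7.17, 7.70, 7.04 and 7.60 (-0.11, interval -1.32 to 1.10). Under quantile normalization both signs turned (0.056 and 0.022).

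The MCM proteins form the motor of the helicase. All 5 measured subunits had differences below 0, with a median of -0.94, and none passed. Differences were below 0 for 30.4% of all genes and 47.6% of those above the median row. Mcm3 was at 10.82, 11.34, 9.56 and 10.52 (-1.04 ± 0.60 SE) and Mcm5 at 11.28, 11.48, 10.35 and 10.89 (-0.76 ± 0.52 SE). Both were lower in each Tip110-/- array. Mcm2 was at 10.95, 12.42, 10.63 and 10.86, and its difference of -0.94 was -0.21 without the wild-type single outgrowth, the highest of its arrays, and -1.68 without the wild-type pool. Mcm6 was at 9.86, 10.75, 7.73 and 10.36. Here 1 array, the Tip110-/- pool, stood low, and the difference of -1.26 was 0.055 without that pool and passed at -2.57 without the Tip110-/- single outgrowth. Mcm4 was at 11.41, 11.77, 11.33 and 11.74, a difference of -0.05 whose sign turned under quantile normalization (0.019) and cyclic loess (0.023). Its interval, from -1.32 to 1.22, includes the differences of Mcm2, Mcm3 and Mcm5, and differences between subunits were not tested. The row that Mcm7 shares with the microRNAs Mir25 and Mir93 was at 7.97, 9.37, 6.07 and 6.14, and the row that Orc5 shares at 6.18, 6.07, 5.31 and 7.61.

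Activation of the loaded helicase involves 10 of the genes, with a median difference of -1.22. Of the 10, 2 passed as lower, and in 7 the Tip110-/- arrays both lay under wild-type. Of all genes 3.67% passed as lower and 12.9% were so placed, and above the median row 7.11% and 23.1%. Gins4, a subunit of the GINS complex that joins Cdc45 and MCM in the active helicase, was at 9.23, 10.92, 7.86 and 6.61. The groups did not overlap, with wild-type at 10.07 ± 1.20 (SD) and Tip110-/- at 7.23 ± 0.88 (SD). Its difference was -2.84 ± 0.82 (SE), a 7.18-fold lower signal (limma adjusted p = 0.343). Without the wild-type single outgrowth it was -1.998 and without the Tip110-/- single outgrowth -2.22, and neither passed. Among the other GINS subunits, Gins1 was at 9.79, 10.29, 9.02 and 9.08 (-0.99 ± 0.53 SE) and Gins2 at 8.67, 9.15, 8.05 and 7.496 (-1.14 ± 0.52 SE). Both were lower in each Tip110-/- array without passing, while Gins3, at 6.56, 5.94, 6.29 and 6.88, overlapped (0.33 ± 0.42 SE).

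Mcm10, which is needed for the assembled helicase to start unwinding, was at 6.78, 6.78, 5.73 and 4.93. The wild-type arrays were almost equal and both Tip110-/- arrays lay well below them. The difference was -1.45 ± 0.39 (SE; limma adjusted p = 0.339), and without the Tip110-/- single outgrowth it was -1.06 and did not pass. Cdc45, part of the active helicase, was at 9.54, 6.89, 6.14 and 5.96. The wild-type arrays lay far apart, so its difference of -2.16 ± 0.92 (SE) did not pass; it passed at -3.49 without the wild-type single outgrowth, and was -0.84 without the wild-type pool. Ticrr, which helps to bring Cdc45 to origins, was at 9.25, 11.49, 7.03 and 8.68 (-2.52 ± 1.006 SE). It passed at -3.64 without the wild-type pool, and was -1.40 without the wild-type single outgrowth and -1.69 without the Tip110-/- pool. Topbp1, its partner, was at 8.92, 9.18, 8.38 and 9.20 and overlapped (-0.26 ± 0.56 SE). With the replicate number as a block, Cdc45 and Ticrr passed as well, for 11 members in all. Of all genes 3.69% passed as lower in that fit.

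The subunits of the activating kinase had differences of opposite sign. Dbf4, the regulatory subunit, was at 8.87, 8.79, 6.65 and 8.41, low mainly in the Tip110-/- pool (-1.30 ± 0.72 SE), and passed at -2.17 without the Tip110-/- single outgrowth but was -0.42 without the pool. Cdc7, the catalytic subunit, was at 4.05, 4.28, 4.50 and 4.83, higher in both Tip110-/- arrays (0.50 ± 0.20 SE), and passed at 0.66 without the Tip110-/- pool but was 0.33 without the Tip110-/- single outgrowth. Its signal was near the median over all genes on each array, and those medians were also higher in Tip110-/-. With arrays centred on their median Cdc7 differed by 0.33.

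Polymerase alpha and primase lay the RNA-DNA primers that the other polymerases extend. Prim1, the subunit that makes the RNA primer, was at 8.46, 8.32, 7.15 and 6.74. The genotypes were well apart, at 8.39 ± 0.10 (SD) and 6.94 ± 0.29 (SD). The difference was -1.44 ± 0.45 (SE; limma adjusted p = 0.353), and it did not pass without the wild-type pool (-1.37), the wild-type single outgrowth (-1.52) or the Tip110-/- single outgrowth (-1.24). Prim2, the other primase subunit, was at 5.75, 5.68, 5.92 and 4.75 and overlapped (-0.38 ± 0.45 SE); it passed at -0.96 without the Tip110-/- pool and was 0.21 without the Tip110-/- single outgrowth. Pola1, the polymerase subunit, was at 7.15, 7.01, 6.44 and 6.43, lower in both Tip110-/- arrays with little spread in either genotype (-0.65 ± 0.36 SE). It did not pass, and Pola2, at 9.78, 9.84, 9.81 and 9.34, overlapped (-0.23).

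Polymerases epsilon and delta copy the leading and the lagging strand. In all 5 members of this step the Tip110-/- arrays lay under wild-type, and 2 passed. Of all genes 12.9% were so placed and 3.67% passed as lower, and above the median row 23.1% and 7.11%. Differences between steps were not tested. Pole was at 8.30, 7.71, 4.76 and 4.42. In Tip110-/- it lay close to the median over all genes of the same array. The difference was -3.41 ± 0.38 (SE), with a 95% interval from -4.39 to -2.43, a 10.7-fold lower signal, and over the 13 other settings it ran from -3.71 to -3.12. Pole2, its second subunit, was at 7.43, 6.58, 5.49 and 6.45 (-1.03 ± 0.52 SE) and did not pass.

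Pold1, the catalytic subunit of polymerase delta, was at 7.47, 7.90, 5.85 and 6.81. Both Tip110-/- arrays were lower, the pool more so, and the difference was -1.36 ± 0.50 (SE; limma adjusted p = 0.386). It did not pass without the wild-type pool (-1.57), the wild-type single outgrowth (-1.14) or the Tip110-/- pool (-0.88), nor under quantile normalization (-1.24). Of the accessory subunits, Pold2 was at 10.55, 10.26, 9.89 and 9.67 (-0.63 ± 0.52 SE) and Pold3 at 7.14, 7.35, 6.86 and 7.07 (-0.28 ± 0.39 SE). In these the groups were separate but close, and neither passed.

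The clamp loader opens the ring of Pcna and places it on primed DNA, where it tethers the polymerases. Rfc5, a small subunit of the loader, was at 8.37, 9.08, 5.47 and 4.73. The median over all genes in the Tip110-/- single outgrowth was 4.32, not far below Rfc5 there. The genotypes lay far apart. With -3.63 ± 0.49 (SE), a 12.4-fold lower signal, it had the most negative difference among the members (limma adjusted p = 0.287), and over the 13 other settings it ran from -4.001 to -3.26. The other 4 subunits did not pass. Rfc1, the large subunit, was at 8.64, 8.79, 6.94 and 8.81, low in the Tip110-/- pool alone (-0.84 ± 0.75 SE), and passed at -1.78 without the Tip110-/- single outgrowth but was 0.099 without the pool. Rfc2, at 11.16, 10.43, 10.98 and 9.15, was lowest in the Tip110-/- single outgrowth (-0.74 ± 0.80 SE). Rfc4 was at 11.20, 10.26, 10.71 and 10.25 and overlapped (-0.25 ± 0.60 SE), while Rfc3, at 6.32, 6.28, 7.18 and 6.63, was higher in both Tip110-/- arrays (0.60 ± 0.38 SE). The 95% intervals of Rfc3 (-0.38 to 1.59) and Rfc5 (-4.89 to -2.37) do not overlap, but the difference between these subunits was not tested.

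Pcna had the highest signal of the members, at 13.06, 13.07, 12.46 and 12.49. Arrays of a genotype nearly coincided, yet the difference of -0.59 ± 0.40 (SE) did not pass (limma adjusted p = 0.485), since the fit moderates the error of each gene by that of genes of like signal. Without that intensity trend Pcna was among 8 further members that passed, with Mcm5, Gins1, Gins2, Pola1, Pold2, Rnaseh2a and Chaf1a. In all 17 members passed as lower, and Orc4 passed as higher. Of all genes 4.91% passed as lower in that fit, against 3.67% with the trend.

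Replication protein A coats the unwound single strands. Rpa3, its smallest subunit, was at 9.35, 8.76, 7.96 and 7.11. The groups did not overlap (-1.51 ± 0.56 SE; limma adjusted p = 0.386). It did not pass without the wild-type pool (-1.22), the wild-type single outgrowth (-1.81) or the Tip110-/- single outgrowth (-1.09), nor under quantile normalization (-1.39) or cyclic loess (-1.46). The other subunits overlapped between genotypes, with Rpa1 at 7.37, 8.53, 6.73 and 7.53 (-0.82 ± 0.61 SE) and Rpa2 at 7.74, 8.08, 7.52 and 9.01 (0.35 ± 0.66 SE).

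On the lagging strand, primers are removed and the fragments joined. Lig1, the ligase that seals them, was at 10.19, 10.84, 8.50 and 8.49. The Tip110-/- arrays were nearly equal and lay well below wild-type. The difference was -2.02 ± 0.54 (SE), a 4.05-fold lower signal (limma adjusted p = 0.339), and it did not pass without the wild-type single outgrowth (-1.69) or the Tip110-/- single outgrowth (-2.01). Rnaseh2a, the catalytic subunit of an RNase that removes ribonucleotides from DNA, was at 8.41, 7.998, 6.96 and 7.46, lower in both Tip110-/- arrays (-0.995 ± 0.47 SE) without passing. Fen1, the flap endonuclease of the same step, was at 6.96, 6.86, 6.79 and 8.16. Its Tip110-/- arrays lay on either side of wild-type (0.57 ± 0.58 SE).

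Chromatin assembly factor puts histones onto the new DNA. Its large subunit Chaf1a was at 9.13, 8.68, 7.79 and 7.79 (-1.11 ± 0.48 SE), and Chaf1b at 7.80, 7.81, 7.52 and 5.95 (-1.07 ± 0.63 SE). Both were lower in each Tip110-/- array and neither passed; Chaf1b passed at -1.86 without the Tip110-/- pool and was -0.29 without the Tip110-/- single outgrowth.

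Of the 4 enzymes supplying deoxynucleotides 1 passed as lower, Tk1, as did 3.67% of all genes and 7.11% above the median row. This thymidine kinase of the salvage route was at 7.96, 8.05, 6.40 and 5.98. Wild-type was at 8.01 ± 0.06 (SD) and Tip110-/- at 6.19 ± 0.29 (SD), with no overlap. The difference was -1.82 ± 0.40 (SE), a 3.52-fold lower signal (limma adjusted p = 0.333). Tyms, the thymidylate synthase of the other route to thymidine nucleotides, was at 10.11, 9.41, 10.28 and 8.47 and overlapped (-0.38 ± 0.79 SE). The ribonucleotide reductase subunits overlapped too, with Rrm1 at 9.44, 8.08, 8.81 and 7.38 (-0.67 ± 0.78 SE) and Rrm2 at 10.53, 11.25, 10.39 and 11.36 (-0.02 ± 0.62 SE). In Rrm1 the pools were above the single outgrowths in both genotypes, and in Rrm2 below them. The sign of Rrm2 turned under quantile normalization (0.003) and cyclic loess (0.058).

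E2f1, an activator of S-phase genes, was at 6.83, 6.45, 6.18 and 5.56, lower in both Tip110-/- arrays (-0.77 ± 0.39 SE) without passing; it passed with arrays centred on their median (-0.94). Slbp, which binds the stem-loop of histone messages in S phase, was at 6.83, 6.64, 6.27 and 6.71 and overlapped (-0.25 ± 0.38 SE).

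Pools and single outgrowths can also be compared separately. In the pooled pair 45 of the 51 members were lower in Tip110-/-, with a median difference of -0.64, and in the single pair 38, with a median of -0.58. These are 88.2% and 74.5% of members, against 35% and 34.3% of all genes and 55.1% and 43.8% of genes above the median row. The medians were 0.16 and 0.11 over all genes, and -0.079 and 0.088 above the median row. In both pairs at once 35 members were lower, or 68.6%, against 17.2% of all genes and 29.4% of genes above the median row. The size differed by pair for some members. Gins4 differed by -1.37 in the pooled and -4.31 in the single pair, and Cdc45 by -3.39 and -0.93, while Pole (-3.54 and -3.29) and Prim1 (-1.31 and -1.58) were close. Each pair is 1 array against 1, so these values have no error of their own.

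**Figure D3:**
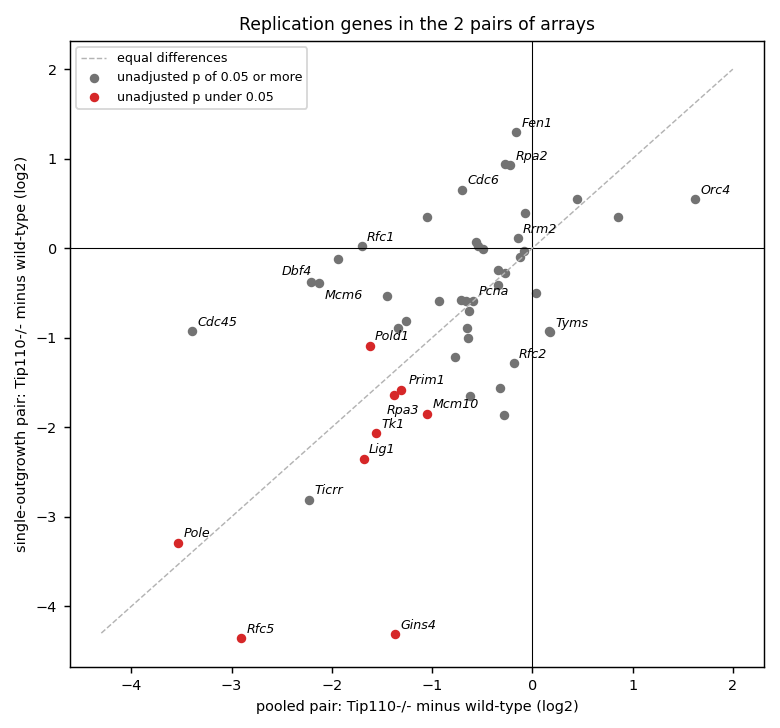
Difference of each replication gene between the pooled arrays (horizontal axis, log2) and between the single-outgrowth arrays (vertical axis, log2); red marks an unadjusted p under 0.05 over the 4 arrays and the dashed line equal differences. Of the 51 points, 35 have both values below 0, and Cdc45 and Gins4 lie far from the line on opposite sides.

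**Figure D4:**
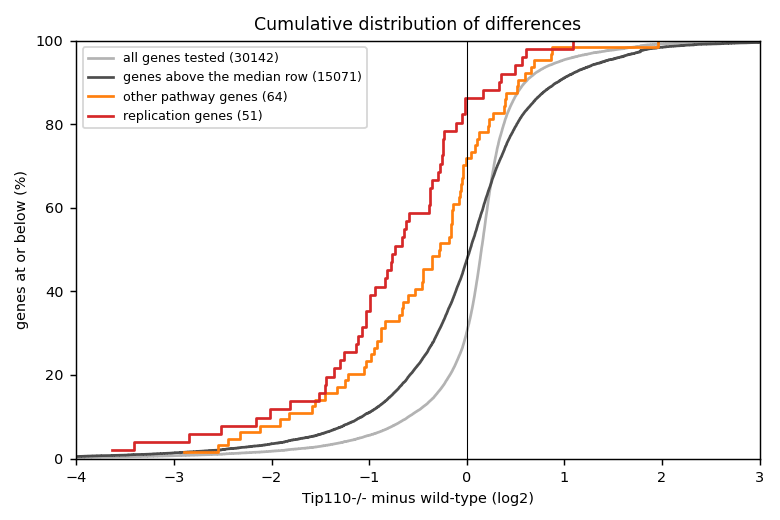
Cumulative share of genes (%) by difference (log2) for the 51 replication genes, 64 other pathway genes, all 30142 genes tested and the 15071 above the median row. The replication genes have their median at -0.74, against 0.15 for all genes.

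Further genes of the pathway were taken from a list of 66, of which 64 had a row. Of these 9 passed as lower and 2 as higher, and 53 did not pass; the median difference was -0.28. The shares were 14.1% and 3.12%, against 7.11% and 4.98% of genes above the median row, where 61.00 of the 64 lie, and 3.67% and 8.99% of all genes. With arrays centred on their median 15 passed as lower, without an intensity trend 17, and without the wild-type single outgrowth 5. Over all genes 6.05% passed as lower with centred arrays and 4.91% without the trend. Among 18 other fork and initiation genes 4 passed as lower and 0 as higher. Dscc1 was at 6.18, 5.81, 4.37 and 4.45 (-1.59 ± 0.25 SE, limma adjusted p = 0.291), in Tip110-/- near the median over all genes. Chtf18 was at 7.62, 7.87, 5.73 and 5.12 (-2.32 ± 0.40 SE, limma adjusted p = 0.305). Dscc1 and Chtf18 belong to an alternative clamp loader that shares its small subunits, Rfc5 included, with the main one. Their partner Chtf8 did not pass (-0.60 ± 0.43 SE). Rif1, which acts on the timing of origins, was at 9.45, 11.02, 8.08 and 6.60 (-2.89 ± 0.83 SE), and did not pass without the wild-type single outgrowth (-2.11) or the Tip110-/- single outgrowth (-2.15). Recql4, a helicase of initiation, was at 4.94, 5.68, 4.48 and 4.46 (-0.84 ± 0.30 SE), in Tip110-/- near the median over all genes. It did not pass without an intensity trend, nor without the wild-type single outgrowth (-0.47), the Tip110-/- pool (-0.85) or the Tip110-/- single outgrowth (-0.83).

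The other subunits of RNase H2 both passed, Rnaseh2b at 5.86, 5.67, 4.70 and 4.77 (-1.03 ± 0.23 SE) and Rnaseh2c at 6.87, 6.85, 6.11 and 5.84 (-0.88 ± 0.34 SE). Rnaseh2c did not pass with any 1 array left out (-1.02 to -0.74), under quantile normalization (-0.71) or in 4 further settings. Of 7 genes of chromatin assembly at the fork, 1 passed, Mms22l, which acts at stalled forks. It was at 6.44, 6.73, 5.16 and 5.51 (-1.25 ± 0.32 SE), and did not pass without the Tip110-/- pool (-1.07). Passing as lower held for 3.67% of all genes and 7.11% above the median row, and passing as higher for 8.99% and 4.98%. Of 8 genes of nucleotide supply, 1 passed as higher, the deoxycytidine kinase Dck, at 4.56, 4.90, 5.72 and 5.46 (0.86 ± 0.26 SE). It did not pass without the wild-type pool (0.69) or the Tip110-/- pool (0.73).

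Among 24 genes of E2F, pocket proteins and the G1/S cyclins, 2 passed as lower and 1 as higher. At 8.33% and 4.17% these shares are near those of genes above the median row, so they are given for the single genes and not as a result for the group. Cdk4, the kinase partner of D cyclins, was at 13.65, 13.82, 12.20 and 10.18 (-2.55 ± 0.76 SE); it did not pass without the wild-type pool (-2.63), the wild-type single outgrowth (-2.46) or under quantile normalization (-2.42). The pocket protein gene Rbl1 was at 4.97, 5.21, 4.54 and 4.57 (-0.54 ± 0.21 SE) and did not pass with any 1 array left out (-0.66 to -0.41) or in 4 further settings. In Tip110-/- Rbl1 lay near the median over all genes of the same array. Cdkn1a, the gene of a cyclin-dependent kinase inhibitor, was the higher one, at 14.04, 13.66, 14.79 and 16.83 (1.96 ± 0.71 SE). It was highest in the Tip110-/- single outgrowth, and did not pass without that array (0.94), the wild-type pool (2.15) or the wild-type single outgrowth (1.77), with arrays centred on their median (1.79) or without an intensity trend.

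The outgrowth holds several cell types, and in such a mixture fewer cells of a type cannot be told apart from less RNA in each. All 8 epiblast markers were lower in both Tip110-/- arrays and 7 passed, with array medians of 7.66 and 5.52, where wild-type had 10.01 and 9.71. All 9 markers of mitosis with a row passed as lower (7.33 and 5.63 against 9.60 and 9.76). Passing as lower held for 3.67% of all genes and 7.11% of those above the median row. Both Tip110-/- arrays lay under wild-type for 12.9% and 23.1%. Prl3d1 and Prl3b1 of the trophoblast giant cell list had no row. Of the 6 markers with one, 3 passed as higher and 0 as lower (8.20 and 8.91 against 7.86 and 7.58). The 3 were Plet1, Psg17 and Mmp9, while Ctsq did not pass and Prl2c2 and Hand1 overlapped between genotypes. Passing as higher held for 8.99% of all genes and 4.98% of those above the median row. Of 7 genes listed as trophoblast progenitor markers, among them the keratins Krt7, Krt8 and Krt18, 0 passed (9.42 and 11.05 against 9.65 and 9.13). Cdx2, at 4.66, 4.97, 6.10 and 4.77, and Elf5, at 5.59, 5.21, 6.39 and 5.20, lay far below these medians. Of 7 primitive endoderm markers 0 passed (5.77 and 5.25 against 5.44 and 4.43). Their levels differed widely. Sox17 lay below the median over all genes on every array, at 3.64, 3.48, 3.49 and 3.45, while Sparc was at 12.90, 12.13, 11.37 and 12.03. The part of these cell types in the differences of the replication genes was not tested. The median over replication genes was 7.36 in the Tip110-/- pool and 7.73 in the single outgrowth. The positive control rows had the same order (8.69 and 9.51), and the epiblast and mitosis medians the opposite one. These are single arrays, and the reason for either order was not tested.

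**Figure D5:**
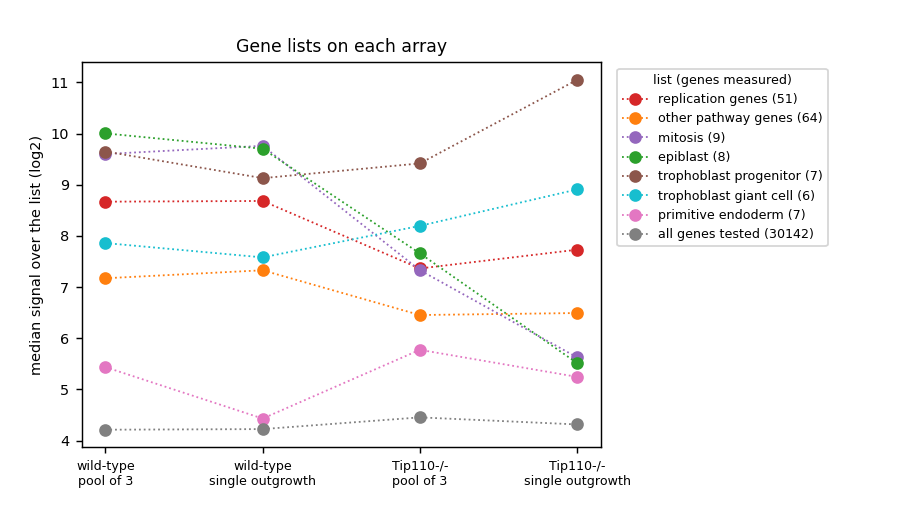
Median signal (log2, vertical axis) of each gene list on each of the 4 arrays, with dotted lines only joining the points of a list. The replication genes are at 8.67 and 8.68 on the wild-type arrays and at 7.36 and 7.73 on the others, and the epiblast and mitosis medians are lowest in the Tip110-/- single outgrowth.

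RefSeq promoter windows of GRCm38.p6 were at hand for 46 of the 53 members, and were searched because so many members lay on the same side. The 250 bases before each gene's start were read on both strands for TTTCGCGC, TTTGGCGC and TTTCCCGC, which resemble the E2F site and can overlap one another, and for the CCAAT box. An E2F-like motif was found in 10 of the 46 members, or 21.7%, against 1.78% of the 27025 genes in the table, where a gene with several windows counts once. They were Orc1, Orc3, Cdc6, Mcm5, Mcm6, Mcm7, Gins3, Topbp1, Pola1 and Rfc3. Of the 7 members with a window that passed as lower, 0 held such a motif there, and of the 22 whose Tip110-/- arrays both lay under wild-type, 2 did. In the 300 bases that include the first 50 after the start, the count was 16 of 46, or 34.8%, against 2.12%, with Lig1 and Pold1 among them, and 7 of the same 22. CCAAT was found before the start in 27 of 46, or 58.7%, against 37.5%. A match describes letters only, and a window without one says nothing on E2F.

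The windows of the 3 members with the smallest p that had an entry are shown beside those of Mcm5 and Mcm6, which held 2 different E2F-like motifs and were picked after the search. Each is the 250 bases before the start, 5′ to 3′ along the gene, and capitals mark E2F-like motifs and CCAAT on either strand.
Rfc5, GRCm38.p6 chr5:117389024-117389273, minus strand: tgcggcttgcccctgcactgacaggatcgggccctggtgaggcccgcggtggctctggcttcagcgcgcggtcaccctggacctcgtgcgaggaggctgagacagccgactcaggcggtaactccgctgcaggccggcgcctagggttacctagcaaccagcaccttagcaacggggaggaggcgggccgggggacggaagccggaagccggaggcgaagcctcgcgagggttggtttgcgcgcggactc
Tk1, GRCm38.p6 chr11:117826015-117826264, minus strand: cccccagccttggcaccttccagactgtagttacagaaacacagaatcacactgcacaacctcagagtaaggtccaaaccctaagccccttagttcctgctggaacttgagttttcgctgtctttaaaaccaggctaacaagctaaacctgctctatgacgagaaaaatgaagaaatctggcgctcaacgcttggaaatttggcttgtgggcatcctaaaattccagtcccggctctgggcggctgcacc
Mcm10, GRCm38.p6 chr2:5012792-5013041, minus strand: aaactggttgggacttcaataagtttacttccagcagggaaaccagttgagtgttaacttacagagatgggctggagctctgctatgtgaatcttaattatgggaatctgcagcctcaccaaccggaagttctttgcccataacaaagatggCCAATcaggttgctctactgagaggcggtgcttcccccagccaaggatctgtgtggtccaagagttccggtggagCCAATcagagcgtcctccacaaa
Mcm5, GRCm38.p6 chr8:75109259-75109508, plus strand: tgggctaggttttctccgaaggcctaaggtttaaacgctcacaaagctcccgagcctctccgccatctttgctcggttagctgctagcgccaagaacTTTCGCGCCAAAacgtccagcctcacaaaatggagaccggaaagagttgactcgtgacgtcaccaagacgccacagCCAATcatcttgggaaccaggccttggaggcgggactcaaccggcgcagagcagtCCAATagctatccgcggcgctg
Mcm6, GRCm38.p6 chr1:128359706-128359955, minus strand: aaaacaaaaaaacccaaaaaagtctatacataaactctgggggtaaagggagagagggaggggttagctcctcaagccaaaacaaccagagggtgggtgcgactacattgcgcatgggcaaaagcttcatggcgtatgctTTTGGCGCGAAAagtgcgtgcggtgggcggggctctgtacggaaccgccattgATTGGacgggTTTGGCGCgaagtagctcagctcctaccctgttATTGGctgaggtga

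In Mcm5 the motifs TTTCGCGC and TTTGGCGC overlap on opposite strands. The same motifs overlap in Mcm6, where TTTGGCGC is found once more nearer the start, and both genes hold CCAAT at 2 places. Mcm10, at -1.45, holds CCAAT at 2 places and none of the E2F-like motifs, and Rfc5 and Tk1, at -3.63 and -1.82, hold none of the 4 motifs in this window. Mcm5 and Mcm6, at -0.76 and -1.26, did not pass.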

How the data were processed

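RNA of 4 outgrowth samples was labelled with the GeneChip WT Pico kit, from 144 pg per the labels (the design text gives another amount). The authors' deposited table holds log2 signals, a unit read from the range of the values, in 72688 rows. Affymetrix Expression Console and Transcriptome Analysis Console are named per the submitters' processing notes; algorithm and genome build: not given in the sources used here. The platform annotation gave 1 symbol to 30604 of 65956 transcript rows; the highest row was kept for 355 genes with several.

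All 30142 genes were fitted with limma 3.58.1 in R 4.3.3 (eBayes with an intensity trend, genotype as the term, no filter on level), two-sided, with Benjamini-Hochberg adjustment over all genes. An exact permutation test of 2 against 2 cannot go below 0.33. On simulated data of 30142 genes for this comparison, 36 of 50 genes lowered by log2 1 and 49 of 50 lowered by 2 passed unadjusted, and 7 and 24 adjusted. The lowered genes were drawn from genes of every level, while every measured member lay above the median row. These rates therefore do not give the power for the members. Tables and plots used pandas 2.3.3 and matplotlib 3.10.9 in Python 3.11.15.

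Members and lists were chosen with earlier results of these data known. Values on every array were due for members that passed, the extremes of each step and members higher on both Tip110-/- arrays; those of further members, and Chtf8, were added after their values were seen. Other pathway genes were named if they passed. The comparison with genes above the median row, the shares under other scalings, the separate pairs and the 300-base window were chosen after seeing the data. Alternatives were quantile, median-centred and cyclic loess scaling, genes above the median row alone, variance priors without a trend or robust, weighted arrays, a replicate block, averaging a gene's rows, and leaving out each array.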

Additional observations from a re-analysis of the deposited data

How the results depend on the processing

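The median difference over members ran from -0.90 to -0.56 in the 13 other settings. Without an intensity trend 17 members passed as lower and 1 as higher, and 17 other pathway genes as lower. With arrays centred on their median that last count was 15. Of all genes 4.91% and 6.05% passed as lower in these settings, in that order. With 1 array left out, 5 to 10 members passed as lower and 0 to 1 as higher, 31 to 41 had the Tip110-/- arrays all under wild-type, which fewer arrays make easier, and 5 to 9 other pathway genes passed as lower. Past the adjusted threshold there were 0 members in every setting. Leaving out 1 array placed the Tip110-/- arrays all under wild-type for 21% to 23.3% of all genes too. With every array kept, the share was 12.9%, and 26 members were so placed. Signs turned in at least 1 setting for 18 members, none of them among the 9. Orc3 was at -0.002 with centred arrays, Cdc6 at 0.056 and 0.037, Mcm4 at 0.019 and 0.023 and Rrm2 at 0.003 and 0.058 under quantile normalization and cyclic loess, and Cdt1 at 0.022 under the first. With 1 array left out, the range held both signs for Orc1 (-1.03 to 0.28), Orc3 (-0.086 to 0.42), Orc6 (-0.84 to 0.13), Cdc6 (-0.59 to 0.55), Cdt1 (-0.39 to 0.17), Mcm4 (-0.26 to 0.15), Mcm6 (-2.57 to 0.055), Topbp1 (-0.67 to 0.15), Pola2 (-0.47 to 0.006), Prim2 (-0.96 to 0.21), Rfc1 (-1.78 to 0.099), Rfc2 (-1.65 to 0.18), Rfc4 (-0.72 to 0.22), Rpa2 (-0.39 to 1.10), Fen1 (-0.12 to 1.25), Rrm1 (-1.38 to 0.048), Rrm2 (-0.51 to 0.47), Tyms (-1.29 to 0.52); the cause was not tested.

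Replicate numbers also separate pools from single outgrowths, and no label ties equal numbers to a litter. The deviations of same-numbered arrays correlated at -0.09 across genes. With a replicate block 11 members passed as lower, the same 9 with Cdc45 and Ticrr, and 10 other pathway genes. Of all genes 3.69% passed as lower in that fit. The number of arrays limits precision: SEs of members ran from 0.20 to 1.007.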
